A study of Mus musculus with 8 samples.

Results

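The T cell receptor signalling machinery was followed through 33 genes that encode kinases, adaptors, phosphatases and ubiquitin ligases acting downstream of CD3. They were chosen by symbol, and all 33 of them were found among the 25230 gene symbols of the count table. By known function 23 were placed on the activating side and 10 on the restraining side. All 33 passed the filter on low counts that left 14691 genes for testing. The samples were gut intraepithelial lymphocytes (IELs), lymphocytes that sit within the intestinal epithelium, from 8 C57BL/6J mice. All 8 were injected intraperitoneally with 35 µg anti-CD3, an antibody that triggers the T cell receptor complex. In the Ex4 group, 4 mice were also given 10 nmol/kg exendin-4, an agonist of the GLP-1 receptor, and in the PBS group 4 mice received PBS in its place. Cells were taken after 3 hours, separated on Percoll and sorted by FACS for the leukocyte protein CD45. No mouse was left without anti-CD3, so the activation itself was not measured, and the labels state neither age nor sex.

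The receptor has no enzyme activity of its own. LCK phosphorylates the CD3 chains, ZAP-70 docks on them and phosphorylates the scaffold LAT, and the adaptors gathered there pass the signal to phospholipase C, to Ras, to the actin cytoskeleton and to NF-kappaB. Inhibitory kinases, phosphatases, ubiquitin ligases and diacylglycerol kinases reverse these steps. Much of this regulation acts on the proteins by phosphorylation, which RNA levels do not report. The GLP-1 receptor signals mainly through cAMP and protein kinase A, and protein kinase A is known to activate CSK, which restrains LCK.

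Total counts per library ran from 13386889 to 31843413 in the Ex4 group and from 18266449 to 25333644 in the PBS group. The members held 0.745% to 0.888% of all counts in Ex4 libraries and 0.752% to 0.932% in PBS libraries, or at least 99716 counts in a library. The lowest member count in any library was 10. Levels below are CPM, gene counts scaled to library size with a factor between libraries, and a value after ± is an SD over 4 libraries. Nothing in the labels links the mice by litter, cage or day, and p-values measure the spread between these mice.

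No member of the signalling machinery changed at an adjusted p under 0.05. Over all genes 2 of 14691, or 0.0136%, were called in the edgeR quasi-likelihood test with Benjamini-Hochberg adjustment, both higher in the Ex4 group. DESeq2 and limma-voom also called 0 members, though DESeq2 gave no adjusted p for Sh2d1a and Ubash3a. Among the members the lowest edgeR adjusted p was 0.429, for Pik3cd. At an unadjusted p under 0.05 there were 9 members, 3 with a higher mean in the Ex4 group (Themis, Ubash3a and Cblb) and 6 with a lower mean (Pik3cd, Csk, Cbl, Lcp2, Ptpn6 and Vav1). This was 27.3% of the members, beside 7.61% of all genes tested at the same unadjusted p, 3.71% higher and 3.9% lower in Ex4. Among the 10745 genes within the members' range of mean level there were 1009, a larger share than over all genes. The 9 became 5 without PBS 1 (15.2% of members, 5.74% of all genes) and 5 without Ex4 4 (15.2% and 6.71%). Without any other single library the count lay between 6 and 12. With the conventional T cell marker score as a covariate it was 0 (3.76% of all genes). That score, in mean log2 CPM, ran from 3.82 to 4.44 in Ex4 and from 2.95 to 4.03 in PBS libraries. It goes partly with the treatment, and a fit with it can take up part of a difference between the groups.

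The activating and the restraining members had nearly the same centre. The median log2 fold change, Ex4 over PBS, was 0.05 over the 23 activating members, with 14 above 0 and 9 below 0. It was 0.06 over the 10 restraining members, with 6 above 0 and 4 below 0. Over all genes tested the median was 0.02 and 52.9% were above 0. Neither median held its sign: with 1 library left out it ran from -0.036 to 0.11 for the activating and from -0.026 to 0.069 for the restraining members. Intervals of 95% around the fitted log2 fold changes lay within a 1.5-fold change in either direction for 17 of the 33 members and within a 2-fold change for 27. For 26 of the 33 members the log2 fold change itself grew or shrank by a factor above 1.5, or passed 0, when some single library was left out. This factor is a ratio of log2 fold changes and not of levels, so a value near 0 exceeds it with a small move. The 7 that did not move so far were Cbl, Cblb, Csk, Lcp2, Pik3cd, Themis and Vav1. The 6 with intervals past a 2-fold change were Lat, Themis, Sh2d1a, Pik3r1, Ptpn6 and Ubash3a.

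**Figure D1:**
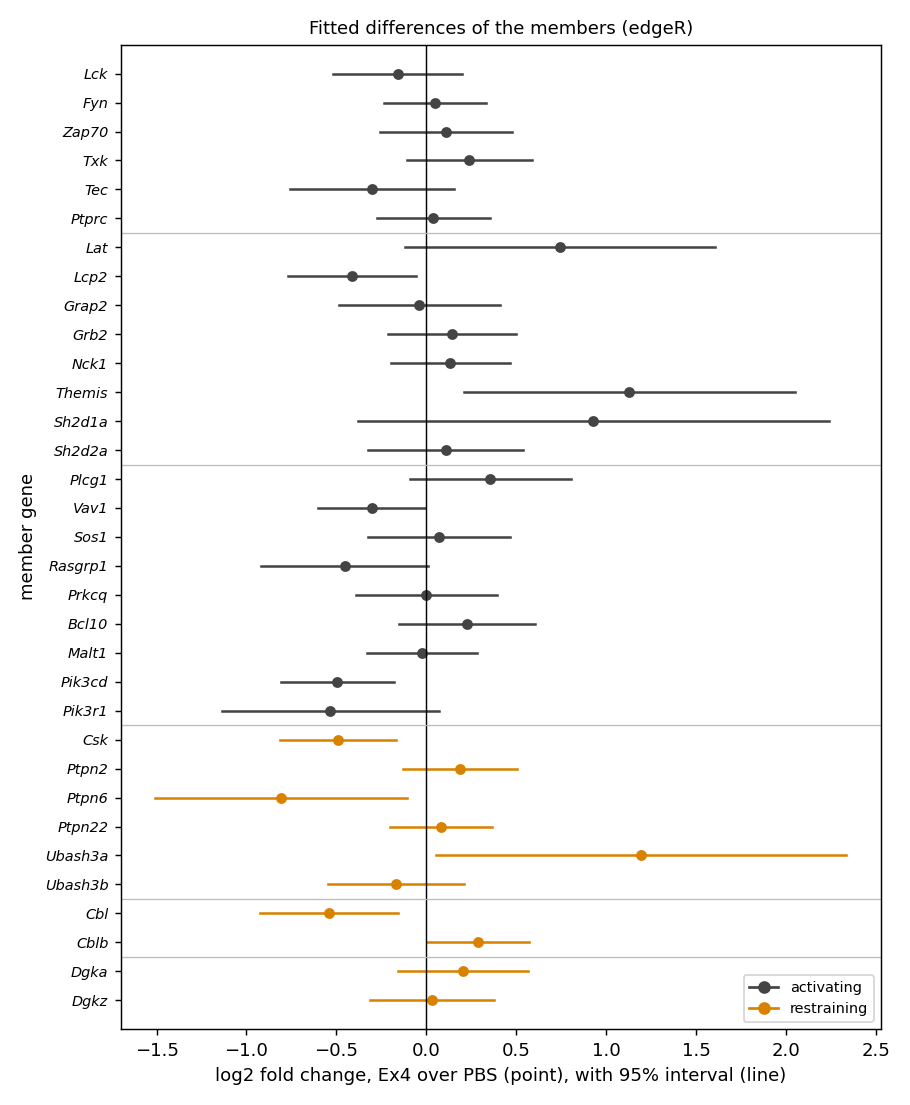
Fitted log2 fold change of each member, Ex4 over PBS, as a point with its 95% interval as a line, grouped by role and coloured by side (x axis, log2 units; y axis, member gene). Most points sit near 0, and the widest intervals belong to genes of low level or large spread such as Ubash3a (1.20) and Themis (1.13).

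The groups did not overlap for 2 of the 33 members, Pik3cd and Csk, each with all 4 Ex4 libraries below all 4 PBS libraries. Over all genes tested the groups did not overlap for 4.95%, with Ex4 below for 2.66% and above for 2.29%. The share of 2 in 33 is near this, and among genes within the members' range of mean level it was 630 of 10745. Pik3cd encodes the catalytic subunit of the leukocyte phosphoinositide kinase PI3K-delta. It was at 126, 143, 127 and 107 CPM in Ex4 1 to 4, against 221, 179, 147 and 164 CPM in PBS 1 to 4. The Ex4 libraries lay close together and the PBS libraries were spread, with PBS 1 the highest. The fitted log2 fold change was -0.50 (SE 0.15, edgeR adjusted p = 0.429). Csk encodes the kinase that phosphorylates the inhibitory tyrosine of LCK. It was at 41.9, 59.1, 49.4 and 52.6 CPM in Ex4 1 to 4, against 86.8, 62.2, 63.7 and 72.7 CPM in PBS 1 to 4. The highest Ex4 and the lowest PBS library were close, at 59.1 and 62.2 CPM. For Csk the log2 fold change was -0.49 (SE 0.15, edgeR adjusted p = 0.432), or -0.39 when PBS 1 was left out. Pik3cd lies on chromosome 4 from 149649168 to 149702571 and Csk on chromosome 9 from 57626646 to 57653631, both on the reverse strand of GRCm38. Counts are given by gene and not by transcript.

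**Figure D2:**
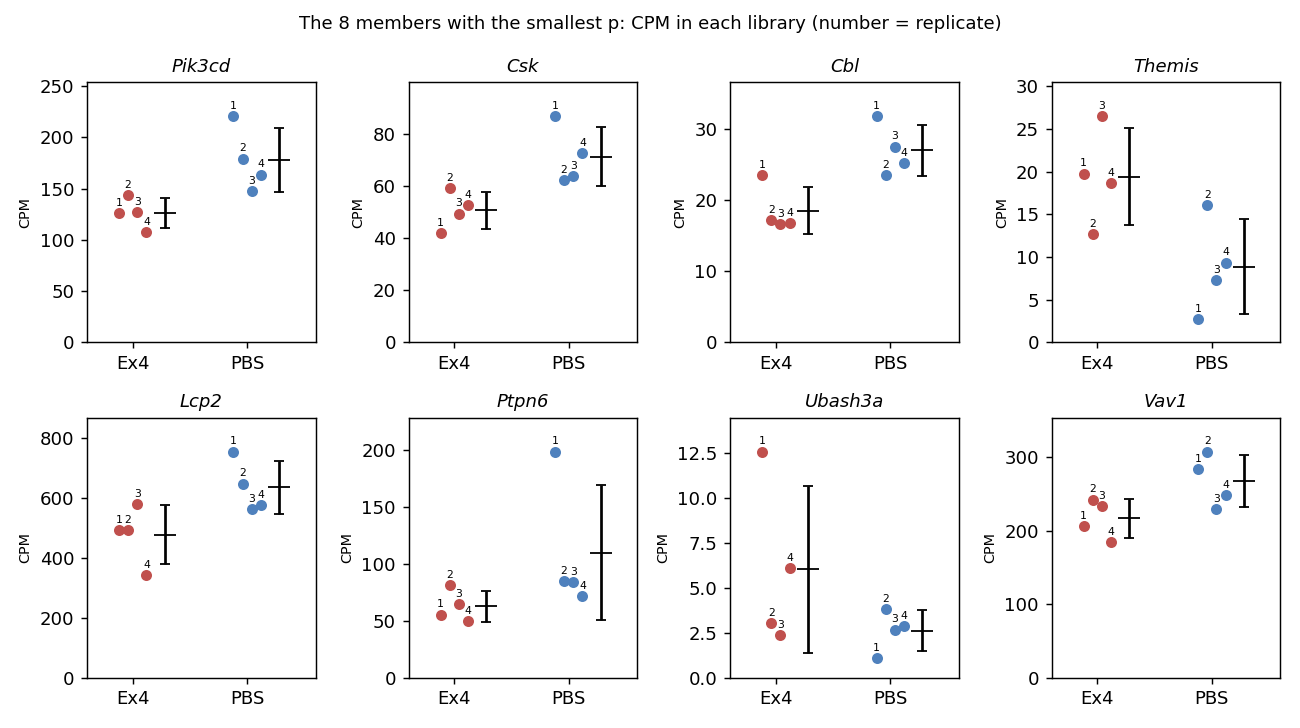
CPM in each library for the 8 members with the smallest unadjusted p (y axis from 0, a scale for each gene). Points are libraries numbered by replicate, Ex4 left of PBS, and the bar beside them is the mean with SD (n = 4). For Pik3cd and Csk every Ex4 point lies below every PBS point, and for Ptpn6 the PBS mean rests on PBS 1 at 199 CPM.

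Promoter sequences of these genes are shown with that of Zap70 to set out where the letters bound by the cAMP-responsive factor CREB do and do not occur. RefSeq windows of GRCm38.p6, from 250 bases before to 50 bases after a gene's start, were found for 29 of the 33 members, with 47 starts. The full cAMP response element TGACGTCA, which reads the same on both strands, was in 1 of these 47 windows (2.13%) and in 1.79% of all 32851 windows. That window belongs to Zap70, at 1 of its 3 starts, and the element spans bases 18 to 11 upstream of the start. The short element TGACG, searched on both strands and contained in the full one, was in 6 of 47 windows (12.8%), those of Dgka, Nck1, Pik3r1, Txk and Zap70, against 20.8% of all windows. The AP-1 letters TGANTCA were in 0 of 47 and in 7.81% of all windows. The ETS core CCGGAAG was in 1 of 47, that of Bcl10, and in 8.86% of all windows. The RUNX core TGTGGT was in 6 of 47 (12.8%) and in 16.8% of all windows. A match is a description of letters and not a binding site. The windows of GRCm38.p6 are chr1:36761548-36761847 on the forward strand for Zap70, and chr9:57653582-57653881 for Csk and chr4:149698659-149698958 for Pik3cd on the reverse strand. The Pik3cd window is the most upstream of 3 Pik3cd starts in RefSeq. They are printed 5′ to 3′ with the cAMP response element, full or short, in capitals.
Zap70: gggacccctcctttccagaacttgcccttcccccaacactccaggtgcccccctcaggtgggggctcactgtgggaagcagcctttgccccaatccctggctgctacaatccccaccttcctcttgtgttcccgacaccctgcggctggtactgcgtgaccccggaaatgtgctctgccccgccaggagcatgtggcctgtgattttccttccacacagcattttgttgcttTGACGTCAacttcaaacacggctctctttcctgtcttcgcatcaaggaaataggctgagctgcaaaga
Csk: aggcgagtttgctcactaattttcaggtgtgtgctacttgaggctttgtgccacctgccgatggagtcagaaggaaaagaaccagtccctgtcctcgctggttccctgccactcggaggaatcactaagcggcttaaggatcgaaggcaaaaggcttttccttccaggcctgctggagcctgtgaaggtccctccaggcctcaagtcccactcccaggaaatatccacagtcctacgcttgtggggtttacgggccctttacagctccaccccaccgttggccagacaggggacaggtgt
Pik3cd: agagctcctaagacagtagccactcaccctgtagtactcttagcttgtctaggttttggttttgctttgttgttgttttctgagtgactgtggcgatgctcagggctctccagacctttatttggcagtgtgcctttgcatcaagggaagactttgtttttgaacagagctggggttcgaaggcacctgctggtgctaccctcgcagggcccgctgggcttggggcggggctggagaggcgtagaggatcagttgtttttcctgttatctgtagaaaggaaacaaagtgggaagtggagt

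Among the receptor-proximal kinases and CD45, 4 of 6 had a log2 fold change above 0, and 0 of 6 had an unadjusted p under 0.05. Lck, the kinase that starts the cascade, was the most abundant member. Per kilobase of annotated exon it was at 599 ± 92.7 CPM in Ex4 libraries and 668 ± 133 CPM in PBS libraries, about an order above its relative Fyn at 62.0 ± 6.79 and 60.0 ± 6.68 CPM per kilobase. Lck was at 1834, 1945, 1881 and 1352 CPM in Ex4 1 to 4, against 1944, 2513, 1694 and 1681 CPM in PBS 1 to 4. The groups overlapped, with Ex4 4 the lowest and PBS 2 the highest library. For Lck the log2 fold change was -0.16 (SE 0.17, edgeR adjusted p = 0.883), with a 95% interval from -0.52 to 0.20. It was -0.26 without PBS 3 and -0.032 without PBS 2. Zap70, the kinase that docks on phosphorylated CD3 chains, was at 264, 178, 184 and 194 CPM in Ex4 1 to 4, against 152, 251, 173 and 183 CPM in PBS 1 to 4. Libraries of both groups were interleaved. The log2 fold change of Zap70 was 0.11 (95% interval -0.26 to 0.48, edgeR adjusted p = 0.931). Its window with the full cAMP response element is 1 of 3, and which start was in use was not measured.

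Fyn, a second Src family kinase, averaged 270.4 ± 29.6 CPM with Ex4 and 262 ± 29.2 CPM with PBS. The Tec family kinases, which act on phospholipase C, differed in level. Txk averaged 523 ± 63.5 and 443 ± 101 CPM in Ex4 and PBS libraries (log2 fold change 0.24), with PBS 2 at 594 CPM and the other PBS libraries between 384 and 398 CPM. Tec, the least abundant kinase of this role, was at 29.1, 39.7, 44.5 and 26.1 CPM in Ex4 1 to 4, against 58.1, 35.9, 46.7 and 31.4 CPM in PBS 1 to 4. The groups overlapped, and PBS 1 was the highest library. The log2 fold change of Tec was -0.30 (SE 0.21, edgeR adjusted p = 0.796), and it was -0.13 without PBS 1. Ptprc, which encodes CD45, the phosphatase that keeps LCK ready for activation and the protein used to sort these cells, averaged 1263 ± 218 CPM with Ex4 and 1229 ± 94.9 CPM with PBS.

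The adaptors held both the highest fitted values of the activating side and genes with no visible difference. Of 8 adaptors, 6 had a log2 fold change above 0, and 2 had an unadjusted p under 0.05, 1 in each direction. Themis encodes an adaptor of the T cell lineage that tunes receptor signal strength in developing thymocytes. It was at 19.8, 12.6, 26.5 and 18.7 CPM in Ex4 1 to 4, against 2.69, 16.1, 7.29 and 9.34 CPM in PBS 1 to 4. PBS 1 was the lowest library, and PBS 2 was above Ex4 2. For Themis the log2 fold change was 1.13 (SE 0.42, edgeR adjusted p = 0.548), which became 0.82 without PBS 1 and 1.58 without PBS 2. Lcp2, the scaffold that joins phospholipase C and VAV1 to LAT, was at 493, 494, 580.2 and 343 CPM in Ex4 1 to 4, against 756, 648, 564 and 575 CPM in PBS 1 to 4. Ex4 3 was above the lowest PBS libraries, and the other Ex4 libraries were below every PBS library. For Lcp2 it was -0.41 as a log2 fold change (SE 0.17, edgeR adjusted p = 0.564).

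Lat, the membrane scaffold phosphorylated by ZAP-70, was at 104, 40.6, 65.9 and 90.8 CPM in Ex4 1 to 4, against 20.1, 65.6, 40.7 and 53.6 CPM in PBS 1 to 4. PBS 1 was again the lowest library. The log2 fold change of Lat was 0.74 (SE 0.38, edgeR adjusted p = 0.693), and it was 0.49 without PBS 1. Sh2d2a, which encodes an adaptor that binds LCK, was the most abundant adaptor per kilobase, at 152 ± 29.8 CPM per kilobase with Ex4 and 141 ± 44.3 with PBS. It was at 1164, 839, 816 and 783 CPM in Ex4 1 to 4, against 756, 1222, 636 and 727 CPM in PBS 1 to 4. One library in each group, Ex4 1 and PBS 2, stood above the rest, and the log2 fold change was 0.11 (SE 0.20, edgeR adjusted p = 0.941). Sh2d1a, which encodes the adaptor of SLAM family receptors, was the least abundant, at 3.85, 1.32, 5.21 and 7.08 CPM in Ex4 1 to 4, against 0.481, 1.83, 4.57 and 2.25 CPM in PBS 1 to 4. The groups overlapped widely (0.93 on the log2 scale, SE 0.61, edgeR adjusted p = 0.782). The Sh2d1a value was 0.58 without PBS 1, 0.59 without Ex4 4 and 1.48 without PBS 3. Grb2, which brings SOS1 to LAT, averaged 169 ± 30.9 CPM with Ex4 and 153 ± 28.5 CPM with PBS. Grap2, which bridges LAT and the LCP2 scaffold, averaged 13.0 ± 1.99 and 13.3 ± 1.63 CPM in Ex4 and PBS libraries, and Nck1, an adaptor of the actin branch, averaged 63.2 ± 12.8 and 57.7 ± 6.36 CPM. An annotated gene on the opposite strand overlaps exons of Lcp2, Themis, Sh2d1a, Plcg1, Ptpn6, Dgka and Dgkz, and whether the counting used strand is not given in the sources used here.

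In the branches downstream of the LAT complex, 4 of 9 members had a log2 fold change above 0, and 2 had an unadjusted p under 0.05, both lower in Ex4: Pik3cd, described above, and Vav1. Vav1, which encodes the exchange factor that activates Rac, was the most abundant of this role per kilobase. It was at 207, 242, 233 and 184 CPM in Ex4 1 to 4, against 284, 308, 229 and 248 CPM in PBS 1 to 4. PBS 3 was below Ex4 2 and Ex4 3, so the groups overlapped, and the log2 fold change was -0.30 (SE 0.14, edgeR adjusted p = 0.642). Rasgrp1, the exchange factor that couples diacylglycerol to Ras, was at 92.1, 95.9, 99.4 and 68.2 CPM in Ex4 1 to 4, against 191, 94.5, 98.2 and 104 CPM in PBS 1 to 4. PBS 1 stood apart, and the other 7 libraries ran from 68.2 to 104 CPM. The log2 fold change of Rasgrp1 was -0.45, and it was -0.16 without PBS 1. Pik3r1, the regulatory subunit of PI3K, had the same shape, at 81.9, 83.9, 57.1 and 106 CPM in Ex4 1 to 4, against 194, 88.9, 81.2 and 111 CPM in PBS 1 to 4. Its log2 fold change of -0.53 became -0.20 without PBS 1.

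Plcg1, the phospholipase that makes diacylglycerol and inositol trisphosphate, averaged 29.2 ± 8.07 CPM with Ex4 and 22.7 ± 4.56 CPM with PBS. Its log2 fold change was 0.36 (edgeR adjusted p = 0.733), or 0.16 when Ex4 1 was left out. Sos1, the least abundant member of this role, was at 18.5, 17.1, 21.1 and 21.4 CPM in Ex4 1 to 4, against 21.7, 14.9, 20.6 and 17.2 CPM in PBS 1 to 4. It encodes a Ras exchange factor, and its libraries were interleaved (log2 fold change 0.07, SE 0.18, edgeR adjusted p = 0.963). The NF-kappaB branch was represented by Prkcq, Bcl10 and Malt1. Prkcq, the protein kinase C isoform theta of T cells, averaged 45.8 ± 4.88 CPM with Ex4 and 45.8 ± 13.1 CPM with PBS, with a log2 fold change of 0.00 and a 95% interval from -0.39 to 0.39. Bcl10 averaged 49.8 ± 7.50 and 42.6 ± 9.48 CPM in Ex4 and PBS libraries, and the protease gene Malt1 56.5 ± 9.33 and 57.4 ± 5.07 CPM. For each of these 3 genes the difference was within the spread between libraries.

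Of the restraining kinase and phosphatases, 3 of 6 had a log2 fold change above 0, and 3 had an unadjusted p under 0.05, 1 higher and 2 lower in Ex4. Besides Csk these were Ptpn6 and Ubash3a. Ptpn6, which encodes a tyrosine phosphatase recruited by inhibitory receptors, was at 55.4, 81.4, 64.3 and 49.8 CPM in Ex4 1 to 4, against 199, 84.9, 84.1 and 71.8 CPM in PBS 1 to 4. PBS 1 was far above every other library, and among the rest Ex4 2 reached the PBS values. Its log2 fold change of -0.81 (SE 0.31, edgeR adjusted p = 0.571) became -0.36 without PBS 1. Ubash3a, a suppressor of T cell receptor signalling, was the member of lowest level per kilobase. It was at 12.6, 3.05, 2.38 and 6.09 CPM in Ex4 1 to 4, against 1.11, 3.82, 2.68 and 2.87 CPM in PBS 1 to 4. The groups overlapped, and Ex4 1 was the highest library. Its log2 fold change of 1.20 (SE 0.53, edgeR adjusted p = 0.63) became 0.53 without Ex4 1 and 0.93 without PBS 1.

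Ptpn22, the phosphatase that acts on LCK together with CSK, was the most abundant restraining member per kilobase and among the least variable. It was at 934, 941, 924 and 812 CPM in Ex4 1 to 4, against 905, 931, 729 and 844 CPM in PBS 1 to 4. The groups overlapped, and the log2 fold change was 0.08 (SE 0.13, edgeR adjusted p = 0.935), with a 95% interval from -0.20 to 0.37. Ptpn2, a phosphatase of LCK and of JAK kinases, averaged 329 ± 39.8 CPM with Ex4 and 289 ± 46.9 CPM with PBS (log2 fold change 0.19, or 0.064 without PBS 1). Ubash3b, the relative of Ubash3a with the stronger phosphatase activity, averaged 23.2 ± 4.04 and 26.1 ± 4.01 CPM in Ex4 and PBS libraries. Per kilobase Ubash3b was above Ubash3a in both groups, at 3.17 ± 0.551 against 0.536 ± 0.415 CPM per kilobase in Ex4 libraries and 3.56 ± 0.548 against 0.233 ± 0.100 in PBS libraries.

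The ubiquitin ligase genes had fitted values of opposite sign. Cbl was at 23.5, 17.1, 16.6 and 16.8 CPM in Ex4 1 to 4, against 31.8, 23.5, 27.5 and 25.1 CPM in PBS 1 to 4. Ex4 1 and PBS 2 met at 23.5 CPM, and the other Ex4 libraries lay below every PBS library. The log2 fold change of Cbl was -0.54 (SE 0.18, edgeR adjusted p = 0.456). Cblb, the family member known for setting the threshold of T cell activation, was at 176, 192, 205 and 227 CPM in Ex4 1 to 4, against 148, 172, 148 and 188 CPM in PBS 1 to 4. Only Ex4 1 lay within the range of the PBS libraries, and the log2 fold change was 0.29 (SE 0.13, edgeR adjusted p = 0.651). Per kilobase Cblb was the more abundant, at 19.1 ± 2.02 CPM per kilobase with Ex4 and 15.6 ± 1.89 with PBS. Cbl averaged 1.84 CPM per kilobase over all 8 libraries.

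The diacylglycerol kinases, which remove the lipid that activates RASGRP1 and protein kinase C theta, did not separate the groups. Dgka was at 43.8, 37.5, 43.7 and 42.9 CPM in Ex4 1 to 4, against 40.8, 45.1, 34.1 and 25.8 CPM in PBS 1 to 4 (log2 fold change 0.20, SE 0.17, edgeR adjusted p = 0.843). Without PBS 4, the lowest library, the Dgka value was 0.048. Dgkz was at 28.4, 40.0, 27.8 and 36.2 CPM in Ex4 1 to 4, against 34.9, 28.6, 35.4 and 30.3 CPM in PBS 1 to 4 (log2 fold change 0.03, SE 0.16, edgeR adjusted p = 0.98). In both genes libraries of the groups were interleaved or overlapped.

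Across libraries PBS 1 was the one at which the members most often took their extreme values. It was the lowest library for 12 members and the highest for 10, together 66.7% of them, and it was at an extreme for 33.6% of all genes tested. Those highest in PBS 1 included Ptpn6, Pik3r1, Rasgrp1, Csk, Pik3cd, Lcp2, Tec, Ubash3b and Cbl, and those lowest in it included Lat, Themis, Sh2d1a, Ubash3a, Grb2, Bcl10, Ptpn2 and Zap70. Without PBS 1 the fitted value of 25 of the 33 members (75.8%) moved closer to 0, as did 52% of all genes. Leaving out PBS 2 instead moved 7 members (21.2%) closer to 0, against 44.1% of all genes. The within-group SD of log2 CPM had a median over the members of 0.24 in Ex4 libraries and 0.27 in PBS libraries.

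**Figure D3:**
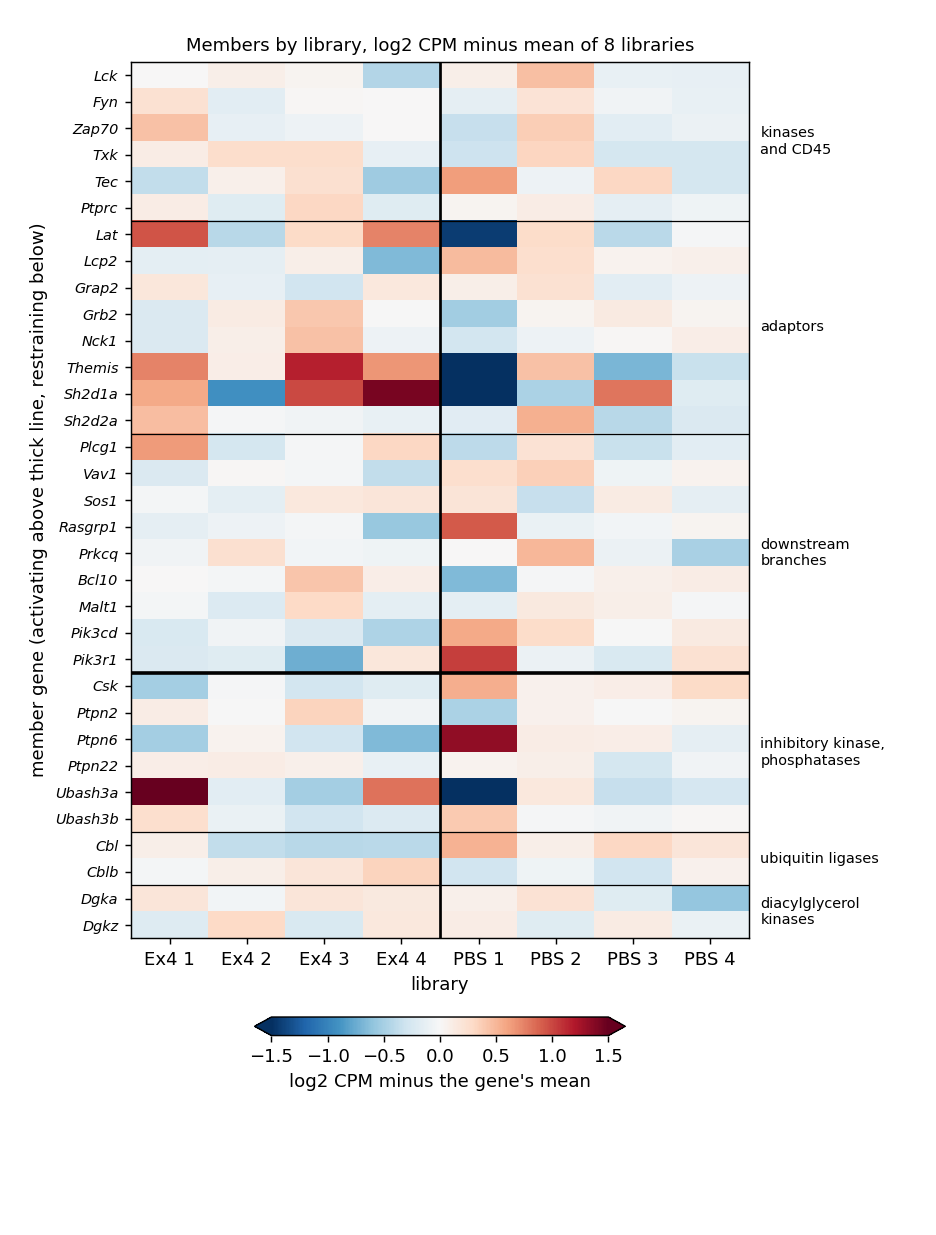
Log2 CPM of each member in each library minus its mean over the 8 libraries, Ex4 columns left of PBS columns, red above and blue below the mean, with members in rows by role. The PBS 1 column holds strong colours in both directions, red for Ptpn6, Pik3r1 and Rasgrp1 and blue for Themis, Lat, Sh2d1a and Ubash3a, and the Ex4 1 column is darkest red for Ubash3a.

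**Figure D4:**
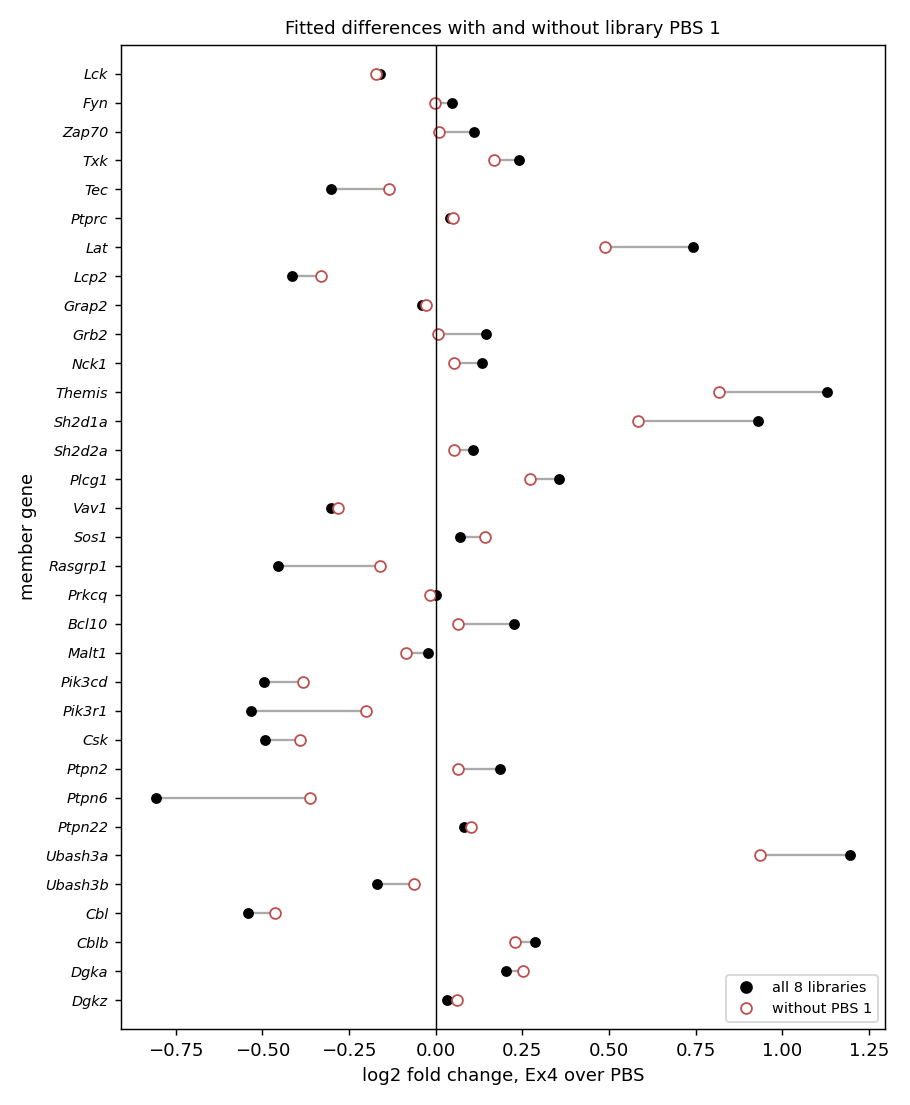
Fitted log2 fold change of each member, Ex4 over PBS, with all 8 libraries (filled points) and without PBS 1 (open points). For 25 of 33 members the open point is closer to 0, as for Ptpn6 at -0.81 with and -0.36 without PBS 1.

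The levels of the marker lists also differed between libraries, and they were set against the member values only as covariates in the fit. The summed level of 16 conventional T cell markers, all with a count in every library, ran from 659.7 to 1150.4 CPM in Ex4 libraries and from 263 to 745 CPM in PBS libraries. PBS 1 held the lowest sum and Ex4 1 the highest. Ctla4 and Icos, which activated T cells also induce, made up 14.9% to 72.7% of these sums. Without them the other 14 markers summed to 258 to 359.6 CPM in Ex4 libraries and 224 to 296 CPM in PBS libraries, and the groups overlapped. Of the defining markers, Cd4 averaged 8.02 ± 6.08 and 5.41 ± 0.554 CPM, Cd5 4.85 ± 3.72 and 2.22 ± 1.41 CPM, and Cd28 13.7 ± 6.01 and 11.6 ± 1.71 CPM in Ex4 and PBS libraries. The Ex4 mean of Cd4 rested on Ex4 1 at 17.1 CPM, with the other Ex4 libraries between 4.42 and 5.83 CPM. The mean log2 level of all 16 conventional T cell markers included Ctla4 and Icos. It ran from 3.82 to 4.44 in Ex4 libraries and from 2.95 to 4.03 in PBS libraries. A fit with it can therefore take up part of a difference between the groups. With this mean as a covariate the log2 fold change was 0.39 for Themis, 0.10 for Lat, -0.14 for Ptpn6, -0.03 for Rasgrp1, -0.28 for Csk, -0.30 for Pik3cd and -0.44 for Cbl. Under this covariate 25 of the 33 members were closer to 0 and 8 were farther from it, among them Dgkz at 0.18, Malt1 at -0.18 and Sos1 at 0.16. The epithelial score also goes partly with the treatment, at 3.35 to 4.37 in Ex4 and 3.97 to 5.39 in PBS libraries. Of its 20 markers 19 had a log2 fold change below 0. With the epithelial score in place of the conventional T cell score, 9 members were closer to 0 and 24 farther from it. The values were then 1.17 for Themis, 1.92 for Sh2d1a, 0.62 for Lat, -0.98 for Ptpn6, -0.66 for Rasgrp1, -0.50 for Csk, -0.62 for Pik3cd and -0.69 for Cbl. In sorted bulk RNA, fewer cells of a type and less RNA per cell cannot be told apart, and the part of cell composition in these values was not tested.

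The cells carried the marks of IELs in both groups. Itgae, the alpha chain of the integrin that binds epithelial E-cadherin, averaged 311 ± 56.9 CPM with Ex4 and 332 ± 92.5 CPM with PBS, and Cd3e averaged 808 ± 181 and 717 ± 167 CPM. The sum of 15 natural IEL markers ran from 68277 to 81918 CPM in Ex4 libraries and from 52929 to 77102 CPM in PBS libraries. Gzma and Gzmb, the genes of granzymes A and B, made up 83.5% to 91.4% of it. The other 13 markers summed to 6073 to 7154 CPM in Ex4 libraries and 6397 to 8714 CPM in PBS libraries. The mean log2 CPM of all 15 ran from 8.48 to 8.79 in Ex4 libraries and from 8.69 to 8.85 in PBS libraries, with PBS 1, the lowest by sum, the highest by this mean. Other cells were present too. The sum of 20 epithelial markers ran from 348 to 794 CPM in Ex4 libraries and from 674 to 1541 CPM in PBS libraries, and Epcam averaged 126 ± 19.9 and 161 ± 16.4 CPM. The sum of 12 B and plasma cell markers ran from 299.8 to 2344 CPM in Ex4 libraries and from 942 to 1513 CPM in PBS libraries. The sum of 15 myeloid markers ran from 137 to 209 CPM and from 129 to 228 CPM in Ex4 and PBS libraries, with Lyz2 at 16.2 ± 5.70 and 27.7 ± 20.3 CPM. PBS 1 was the highest library by this sum, with Ex4 2 next at 209 CPM, and the listed genes were split. PBS 1 held the most Lyz2, at 57.4 CPM, and the most Csf1r, a receptor of macrophages, at 14.8 CPM. In contrast, Itgax was lowest in PBS 1, at 27.7 CPM, and Cd14 and Cd68 were highest in Ex4 2. PBS 1 was also the highest library for Ptpn6, Pik3cd and Csk. Of all listed markers only the myeloid gene Fcgr1 was at 0 in a library, PBS 3. B cells and myeloid cells also express Ptpn6, Vav1, Pik3cd, Csk and Cbl, and the share of their counts from such cells was not tested.

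The wider pathway was read from 85 further genes of T cell receptor signalling, from CD3 chains and coreceptors to calcineurin, MAP kinases and NF-kappaB. In the edgeR test 0 of the 85 were called, limma-voom also called 0, and DESeq2 called 2, Ppp3r1 and Cd8a (2.35% of the list, and 0.565% of all genes). Without a filter on low counts edgeR called 1, Ppp3r1. There were 13 with an unadjusted p under 0.05, 8 higher and 5 lower in Ex4, or 15.3% beside 7.61% of all genes. The groups did not overlap for 5 of the 85, 3 with Ex4 above and 2 with Ex4 below, or 5.88%, near the 4.95% of all genes. Their median log2 fold change was 0.03, with 49 above 0 and 36 below 0. Ppp3r1, the regulatory subunit of the phosphatase calcineurin, had the smallest p of the list, at 182, 128, 203 and 159.7 CPM in Ex4 1 to 4, against 60.6, 92.1, 91.8 and 112 CPM in PBS 1 to 4. Every Ex4 library was above every PBS library, with a log2 fold change of 0.91 (SE 0.19, edgeR adjusted p = 0.253). Tespa1, an adaptor of thymocyte selection, averaged 35.3 ± 5.23 CPM with Ex4 and 22.9 ± 3.58 CPM with PBS and also did not overlap between groups (log2 fold change 0.62, edgeR adjusted p = 0.353). Cd8a, the CD8 chain that binds LCK, was at 953, 1219, 998 and 1070.5 CPM in Ex4 1 to 4, against 2074, 1513, 1363 and 1449.6 CPM in PBS 1 to 4. Every Ex4 library was below every PBS library for Cd8a (log2 fold change -0.59, SE 0.16, edgeR adjusted p = 0.351). Cd8b1, the other CD8 chain, was far lower in level. It averaged 35.6 ± 8.69 CPM with Ex4 and 27.0 ± 5.22 CPM with PBS (log2 fold change 0.40, edgeR adjusted p = 0.685). Trat1, an adaptor associated with the receptor complex, averaged 113 ± 17.0 and 79.9 ± 11.0 CPM in Ex4 and PBS libraries (log2 fold change 0.49, edgeR adjusted p = 0.429).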

How the data were processed

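Strand-specific mRNA libraries from 8 mice were compared, 4 given exendin-4 (Ex4) and 4 given PBS, all after anti-CD3. The deposited table holds raw counts, whole numbers without normalisation by the authors, for 25230 gene symbols. Per the submitters' processing notes the tools were STAR 2.7.9a and DESeq2 with mm10, and no role is stated for either. How reads were assigned to genes, and whether by strand, was not given in the sources used here. All 8 columns carried a description that matched 1 mouse each. No 2 libraries of a group were alike within sampling noise (mean chi-square per gene from 20.6 to 77.1).

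The main test was the robust quasi-likelihood F test of edgeR 4.0.16, run in R 4.3.3 on genes kept by filterByExpr with TMM factors and with Benjamini-Hochberg adjustment over all 14691 genes and a threshold of 0.05. SEs were the fitted value over the square root of F. The 95% intervals used the SE and the total degrees of freedom of the fit, prior and residual together. CPM were scaled by the TMM factors, and log2 CPM used a prior count of 2. Levels per kilobase used the union of GENCODE M21 exons, found for 33 of 33 members; this union includes rare transcripts and lowers the level of genes with long ones. Promoters came from RefSeq. Alternatives were DESeq2 1.42.0, limma-voom (limma 3.58.1), other scaling and filters, each library left out, and added covariates. The test was checked on simulated counts with known changes.

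The members, their sides and all lists were chosen with earlier results of these data known, so no list was tested and no p was adjusted over a list alone. All members are named; full values are given for the 8 with the smallest p, those without overlap and the extremes of level in each role. Lat, Zap70, Rasgrp1 and Pik3r1 were given in every library, Plcg1 with a statistic and Cd8b1 beside Cd8a after their values were seen. So were Csf1r, Itgax, Cd14, Cd68, Ctla4, Icos, Gzma and Gzmb as markers, and the marker sums without the last 4. The value of 1 marker gene is not reported here.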

Additional observations from a re-analysis of the deposited data

Results flagged for a closer look

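For every member, some named pathway and marker genes, each list's score and some totals per library, a ratio was taken in each group. Gene values and scores were on the log2 CPM scale. The ratio was the distance of the most extreme of 4 libraries to the next one, over the range of its group. This ratio passed its 95% limit in 14 of 114 groups, where chance passes about 1 in 20, or 5.7. Of the 66 groups of the members 12 passed, where 1 in 20 gives 3.3, and 6 of these concern PBS 1. The groups share the same libraries and are not independent of each other, and the share that passes over all genes was not computed.

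In PBS 1, Grb2 was low (ratio 0.854, at 6.79 against 7.35 log2 CPM in the nearest other library), Bcl10 was low (0.836) and Ptpn2 was low (0.868). In the same library Rasgrp1 was high (0.868, at 7.58 against 6.70 log2 CPM), Ptpn6 was high (0.836, at 7.63 against 6.41 log2 CPM) and Ubash3b was high (0.85). The conventional T cell score of PBS 1 was low (0.941, at 2.95 against 3.96 log2 CPM), as was its Cd5 (0.876). In PBS 2, Txk was high (0.92, at 9.21 against 8.64 log2 CPM).

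Among Ex4 libraries, Lck (0.839) and Ptpn22 (0.879) were low in Ex4 4, the shallowest library. Prkcq was high (0.919) and Dgka low (0.861) in Ex4 2, and Cbl was high in Ex4 1 (0.916).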

How the results depend on the processing

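The count of members called was 0 under every one of the 20 alternatives, with a lowest adjusted p of 0.0995, for Pik3cd in DESeq2. Sh2d1a and Ubash3a had no adjusted p in DESeq2 and were counted there as not called. The count of genes called over all genes, 2 with the edgeR test, was 83 with DESeq2 (48 higher, 35 lower), 8 without a filter on low counts (5 higher, 3 lower) and 1 with limma-voom, the replicate block, the label number, the conventional T cell score or the epithelial score as a term. With 1 library left out it ran from 1 to 14, the 14 without PBS 2. The medians of the activating and the restraining members moved by less than the spread between libraries in every alternative, but not always with the same sign. The activating median was -0.032 with the conventional T cell score, -0.025 with the epithelial score, -0.031 without Ex4 1 and -0.036 without PBS 3, and the restraining median was -0.026 without Ex4 2. The replicate block left the number of members at an unadjusted p under 0.05 at 9. Deviations from the group mean correlated with r from -0.24 to 0.14 between same-numbered libraries and from -0.34 to 0.36 between the others. Whether a shared number marks a shared day or cage cannot be told from these values.

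Of the 33 members 18 kept the sign of their fitted value in every alternative, and 15 with small or uncertain values did not; the cause was not tested. Prkcq was at -0.010 with DESeq2, -0.010 with RLE scaling, -0.0075 with no scaling factor and -0.019 with no filter. Without both PBS 2 and Ex4 3, Ptprc was at -0.039, Grap2 at 0.11, Nck1 at -0.027 and Sos1 at -0.077. With the conventional T cell score as a covariate, Fyn was at -0.066, Zap70 at -0.094, Ptprc at -0.015, Grb2 at -0.051, Sh2d1a at -0.15, Sh2d2a at -0.010, Bcl10 at -0.062 and Ptpn2 at -0.031. With the epithelial score, Fyn was at -0.025, Zap70 at -0.033, Ptprc at -0.063, Sh2d2a at -0.14, Prkcq at -0.025, Malt1 at 0.0061 and Ptpn22 at -0.013. With 1 library left out, the log2 fold change ran from -0.039 to 0.11 for Fyn, -0.048 to 0.26 for Zap70, -0.091 to 0.091 for Ptprc, -0.053 to 0.33 for Sh2d2a, -0.15 to 0.19 for Prkcq, -0.16 to 0.019 for Malt1, -0.094 to 0.086 for Dgkz, -0.13 to 0.021 for Grap2, -0.029 to 0.20 for Nck1, -0.041 to 0.14 for Sos1 and -0.023 to 0.12 for Ptpn22.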
